A study of Mus musculus with 10 samples.

Results

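The genes described here encode the enzymes that make fatty acids, lengthen and desaturate them, couple them to coenzyme A and assemble them into glycerolipids, together with a pair of regulators of that pathway. They were taken by name, as 35 symbols out of the 33212 genes of the count table, and each symbol was found there. The levels come from polyadenylated RNA of αTC1 cells, mouse cells grown out of a pancreatic tumour that secreted glucagon, kept for 48 h with 10 μM enzalutamide, an androgen receptor antagonist given in prostate cancer, or with the solvent DMSO. There were 5 libraries with enzalutamide and 5 with DMSO. The cells of both groups came from the same line, no genotype differed between them, and the labels call the libraries biological replicates without saying whether they were separate cultures.

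In this pathway ATP citrate lyase and acetyl-CoA synthetase supply cytosolic acetyl-CoA, acetyl-CoA carboxylase turns it into malonyl-CoA, and fatty acid synthase joins these units into palmitate. Elongases and desaturases then make longer and unsaturated chains, acyl-CoA synthetases activate them, and the acyltransferases, phosphatidate phosphatases and diacylglycerol acyltransferases build phospholipids and triacylglycerol from them. In liver and fat many of these genes are driven together by SREBP1c, a product of Srebf1. In islet cells, acyl-CoA and diacylglycerol made by these enzymes are known to influence hormone secretion.

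Library totals were between 59557697 and 67406939 counts with enzalutamide and between 64557371 and 68603842 with DMSO. Levels are given as CPM, counts relative to library size after scaling by trimmed means of M values, and every ± is the SD over 5 libraries. A library without a count for a gene still allows up to 3 counts from counting error alone, which is between 0.0439 and 0.0497 CPM. The first principal component of all genes held 27.3% of the variance and separated the groups. The α cell markers were present: of 7 reported here, 6 reached 1 CPM (Gcg, Irx1, Irx2, Ttr, Pcsk2 and Slc38a5), while Gc had no counts. Their summed level was between 11332 and 12631 CPM with enzalutamide and between 19264 and 20489.8 CPM with DMSO. Most of this sum is Gcg, and the markers moved unequally: Gcg (log2 fold change -0.85), Ttr (-1.22) and Slc38a5 (-0.99) fell in edgeR's test, while Irx1 (0.02), Irx2 (0.01) and Pcsk2 (0.03) did not pass. The part of this difference in the results on lipid genes was not tested. No marker of adipocytes reached 1 CPM, and Lep, Cidec, Cfd and Fabp4 had no counts in any library. Their summed level was between 0.0300 and 0.314 CPM with enzalutamide and between 0 and 0.172 CPM with DMSO. Among 5 hepatocyte markers only Alb, Apoa2 and Serpina1a reached 1 CPM, and the list summed to between 4.20 and 5.74 CPM with enzalutamide and between 4.77 and 6.39 CPM with DMSO. Within it Alb was lower with enzalutamide (-1.09, edgeR adjusted p = 0.000252) and Serpina1a higher (0.95, adjusted p = 0.00158), and Apoa2 did not pass (-0.21). Of 7 markers of other islet cells only Ghrl reached 1 CPM, in DMSO cells, with a sum between 1.05 and 1.61 CPM with enzalutamide and between 1.44 and 1.94 CPM with DMSO, and Ins1, Pdx1, Sst and Ppy had no counts. Of 7 fibroblast and immune markers only Col1a2 reached it, also in DMSO cells, with a sum between 1.13 and 3.00 CPM with enzalutamide and between 1.58 and 2.74 CPM with DMSO, and Ptprc had no counts. Col1a2 was lower with enzalutamide (-1.44, edgeR adjusted p = 0.0048), and Ghrl did not pass (-0.10).

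Enzalutamide shifted individual enzymes of the pathway in both directions and by modest amounts. In desaturation 4 of 5 tested genes passed edgeR's test, and in glycerolipid assembly 5 of 9 did. The calls of Scd1 and Gpam among these were lost in several alternatives. Fatty acid synthase, acetyl-CoA carboxylase alpha and Srebf1, counted over all its transcripts, did not pass the test. Of the 35 genes, 32 had enough counts to be tested, and 14 of these passed an adjusted p of 0.05 in the quasi-likelihood test of edgeR, adjusted by Benjamini-Hochberg over all 14156 genes tested. Among all genes tested, 37.8% passed, against 43.8% of the tested members, so the share of changed lipid synthesis genes was near that of the whole transcriptome. There were 9 members higher with enzalutamide, a share of 28.1% where all genes gave 19.0%, and 5 lower, a share of 15.6% where all genes gave 18.8%. The groups' CPM values did not overlap for 10 of the 32 (6 higher and 4 lower), or 31.3%, against 26.8% of all genes tested. Calls were commoner among highly expressed genes. Above 100 CPM, 6 of 10 members passed, where 60.0% of all genes did, and between 20 and 100 CPM 6 of 15 members passed, where 47.7% of all genes did.

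The median log2 fold change of the members, enzalutamide against DMSO, was 0.01, the same to 2 decimals as that of all genes tested. The median size of the change, without its sign, was 0.0994 on the log2 scale for members, below the 0.157 of all genes. These medians were not matched for expression level: 3 of the 32 tested members lay below 5 CPM, against 3960 of the 14156 genes. With the test set against a minimum change of 1.2-fold (edgeR's glmTreat), 0 members passed, and 5 had an unadjusted p under 0.05. The estimates themselves exceeded 1.2-fold for 7 of the 14, namely Acacb, Elovl7, Scd2, Agpat4, Lpin1, Lpin2 and Dgat1. With library totals alone as the scale, 12 members passed as higher and 3 as lower, against 9 and 5 with the trimmed mean, and over all genes 60.7% of calls were higher, against 50.3%. In bulk RNA, a change in the amount of a transcript per cell and a change in the share of cells that hold it cannot be told apart.

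**Figure D1:**
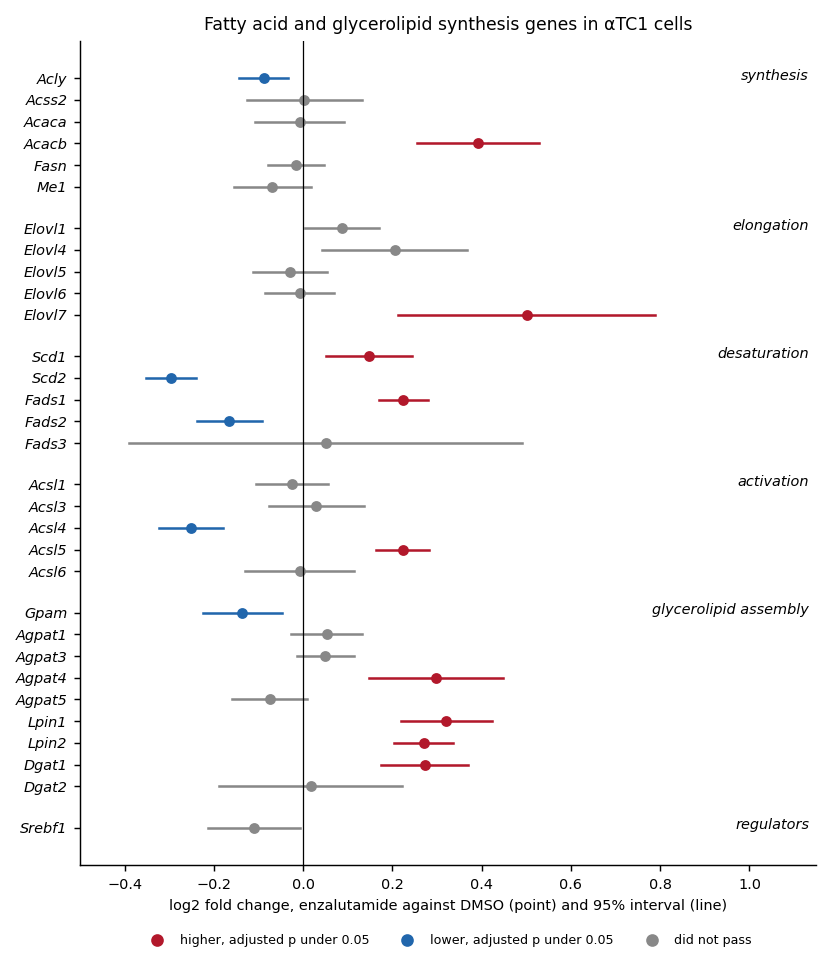
Log2 fold change of each tested member, enzalutamide against DMSO, from edgeR (points), grouped by step. Lines are nominal 95% intervals from the normal quantile, which are somewhat too short for 5 libraries per group. Red points are members higher and blue points members lower at an adjusted p under 0.05, and grey points did not pass. Thrsp, at -1.80, lies outside the axis and is left out. Desaturation (5 tested) and glycerolipid assembly (9 tested) hold 4 and 5 of the 14 members that passed. Among all genes tested, 37.8% passed.

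Per kilobase of exon, the 5 most abundant members were the same genes in both groups. In enzalutamide cells Acly had 74.2 CPM per kilobase, Scd2 67.5, Fads1 52.5, Fasn 47.2 and Agpat1 46.6, and in DMSO cells Acly had 78.9, Scd2 82.9, Fads1 44.9, Fasn 47.8 and Agpat1 44.9. Acly was thus ahead of Scd2 with enzalutamide and behind it with DMSO, and Fads1 was above Fasn with enzalutamide and below it with DMSO. The scale per kilobase uses all annotated exons of a gene, whichever isoform is expressed. The least abundant tested members were Elovl7, with 0.967 CPM per kilobase with enzalutamide and 0.683 with DMSO, Fads3 with 0.321 and 0.310, and Thrsp with 0.0418 and 0.147. The remaining 3 members were at or near 0. Elovl2, an elongase of polyunsaturated chains, had no counts in any library. Agpat2, the acyltransferase whose loss causes lipodystrophy, reached at most 8 counts in an enzalutamide library and 13 in a DMSO library. Lpin3 had no counts with enzalutamide and 7 counts at most with DMSO. For the 25 members at 20 CPM or more, the coefficient of variation between libraries had a median of 3.92% with enzalutamide and 3.89% with DMSO.

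**Figure D2:**
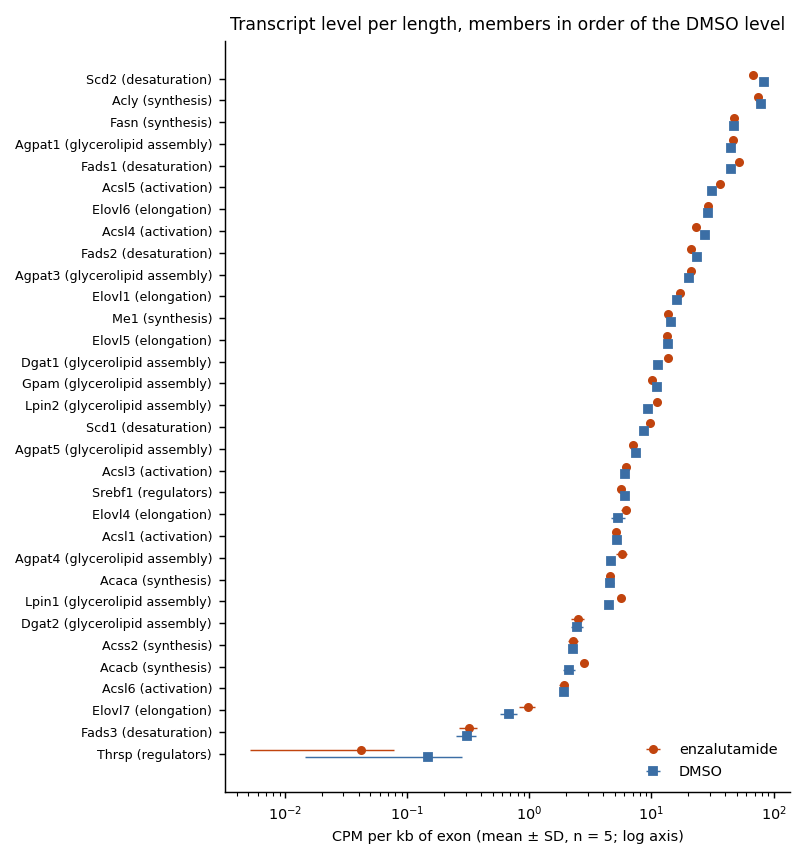
Level of each member in CPM per kilobase of annotated exon (log axis), as mean and SD over 5 libraries, for enzalutamide and DMSO cells. The members span from Scd2, at 67.5 with enzalutamide and 82.9 with DMSO, to Thrsp, at 0.0418 with enzalutamide and 0.147 with DMSO. Elovl2, Agpat2 and Lpin3, which were not tested, are left out.

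Among the 6 genes of fatty acid synthesis, 1 was higher with enzalutamide, 1 was lower and 4 did not pass. Acacb, the acetyl-CoA carboxylase of the outer mitochondrial membrane, whose malonyl-CoA restrains fatty acid oxidation, lies on chromosome 5 (114146535 to 114250761, plus strand, GRCm38/mm10). It had 27.7, 24.8, 25.7, 27.5 and 28.2 CPM in enzalutamide libraries 1 to 5, against 20.98, 24.0, 18.8, 18.1 and 20.1 CPM in DMSO libraries 1 to 5. The lowest enzalutamide library lay just above the highest DMSO library, and the log2 fold change was 0.39 (SE 0.0699, edgeR adjusted p = 0.000247). Acly, which splits citrate into acetyl-CoA, had 400.6, 376, 393, 396 and 394 CPM in enzalutamide libraries, against 414, 417, 407, 412 and 434 CPM in DMSO libraries. These groups did not overlap either, although the change was only -0.09 (SE 0.0282, edgeR adjusted p = 0.0195), and it did not pass with library totals alone as the scale (adjusted p = 0.157) or without DMSO library 5 (adjusted p = 0.0611).

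Fasn, which makes palmitate, had 537, 503, 497, 525 and 523 CPM with enzalutamide and 500.0, 525, 505, 542 and 543 CPM with DMSO, with intermixed libraries. Its log2 fold change was -0.02 with a 95% interval from -0.08 to 0.05. Acaca, the cytosolic acetyl-CoA carboxylase, gave -0.01 (interval -0.11 to 0.09), Acss2, which makes acetyl-CoA from acetate, gave 0.00 (interval -0.13 to 0.13), and Me1, the malic enzyme that supplies NADPH, gave -0.07 (interval -0.16 to 0.02). The value of Acaca is less certain than that of Acacb, since 30.4% of its 50-base stretches also occur in other annotated genes, and 22.9% of those of Me1 do. When trends with GC content and transcript length were removed from each library, an alternative added after the data were seen, Fasn gave -0.12 (adjusted p = 0.000775).

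The ratio of Acaca to Acacb counts within a library, which does not depend on how libraries are scaled, was 2.93 ± 0.0996 with enzalutamide and 3.90 ± 0.594 with DMSO (n = 5 each). The log2 difference was -0.40 (two-sided exact permutation over libraries, p = 0.00794, as small as 252 arrangements allow; adjusted p = 0.0159 over 8 such pairs). The ratio of Acly to Acss2 was 16.9 ± 1.44 with enzalutamide and 17.9 ± 0.996 with DMSO, a log2 difference of -0.09 that did not pass (exact p = 0.230, adjusted p = 0.307).

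Of the elongases, Elovl7, which acts on saturated long chains, was higher with enzalutamide, and the other 4 tested did not pass. Elovl7 had 3.71, 3.27, 3.94, 3.62 and 4.86 CPM in enzalutamide libraries, against 2.41, 2.51, 2.68, 3.51 and 2.60 CPM in DMSO libraries. Enzalutamide library 2 lay below DMSO library 4, and the other 4 lay above all DMSO libraries (log2 fold change 0.50, SE 0.147, edgeR adjusted p = 0.0121). Elovl6, which lengthens palmitate to stearate and was the most abundant elongase, had 187 ± 9.41 CPM with enzalutamide and 188 ± 8.52 CPM with DMSO, a log2 fold change of -0.01 (interval -0.09 to 0.07). Elovl5, which lengthens polyunsaturated chains, gave -0.03 (interval -0.11 to 0.05). Elovl1 and Elovl4, which make very long chains, gave 0.09 (edgeR adjusted p = 0.116) and 0.20 (adjusted p = 0.0616). Elovl4 passed without DMSO library 5 (adjusted p = 0.00992) or enzalutamide library 4 (0.0253). Cdc20, whose exons overlap those of Elovl1 on the opposite strand over 53 bases, was itself lower with enzalutamide (-0.37), and whether the counting used strand is not given in the sources used here. The ratio of Elovl5 to Elovl6 was 0.253 ± 0.0143 with enzalutamide and 0.256 ± 0.00973 with DMSO (exact p = 0.651).

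Desaturation held the largest share of changed members, 4 of 5, with 2 higher and 2 lower. Among all genes tested 37.8% passed, and 47.7% of those between 20 and 100 CPM, the range of Scd1 and Fads2. The share was higher above 100 CPM, where Scd2 and Fads1 lay, and 5 genes are few. Between Scd1 and Scd2, and between Fads1 and Fads2, 1 gene rose while the other fell. Scd1 and Scd2 are stearoyl-CoA desaturases, which make oleate and palmitoleate. Scd2 lies on chromosome 19 (44293674 to 44306864, plus strand) and Scd1 on the same chromosome (44394455 to 44407879, minus strand). Scd2 had 361, 365, 369.9, 361 and 387 CPM with enzalutamide, against 449, 469, 443, 451 and 452 CPM with DMSO. Every enzalutamide library lay well below every DMSO library, and Scd2 had the lowest adjusted p of all members (log2 fold change -0.30, SE 0.0285, edgeR adjusted p = 3.4e-07), a level 18.6% lower. Scd1, the less abundant of the pair, had 44.1, 47.3, 51.3, 45.1 and 49.6 CPM with enzalutamide, against 42.6, 45.2, 43.2, 42.9 and 40.5 CPM with DMSO. The 2 lowest enzalutamide libraries fell within the DMSO range, and the change was 0.15 (SE 0.0489, edgeR adjusted p = 0.0242). It no longer passed without DMSO library 1 or 5 or without enzalutamide library 3 or 5, with adjusted p up to 0.0757.

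The ratio of Scd1 to Scd2 was 0.129 ± 0.00635 with enzalutamide and 0.0947 ± 0.00296 with DMSO, with no overlap between the libraries. The log2 difference was 0.44 (exact two-sided permutation test, p = 0.00794, adjusted p = 0.0159 over 8 pairs). Of the 50-base stretches of Scd2, 2.66% also occur in Scd1, and 4.56% of those of Scd1 occur in other annotated genes, so some reads could be exchanged. Such an exchange could weigh more on Scd1, which averaged 42.9 CPM with DMSO, than on Scd2, which averaged 453 CPM. Its size was not tested.

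Fads1, Fads2 and Fads3 form a cluster elsewhere on chromosome 19, with Fads3 at 10041569 to 10060110 (plus strand), Fads2 at 10062765 to 10101746 (minus strand) and Fads1 at 10182888 to 10196877 (plus strand). Fads2 carries out the entry desaturation of linoleate and linolenate, and Fads1 the later step that yields arachidonate and eicosapentaenoate. Fads1 had 256, 246, 249, 254 and 258 CPM with enzalutamide, against 212, 215, 216, 224 and 215 CPM with DMSO. All enzalutamide libraries were above all DMSO libraries (log2 fold change 0.22, SE 0.0280, edgeR adjusted p = 6.8e-06). Fads2 had 68.5, 72.3, 67.5, 71.1 and 65.1 CPM with enzalutamide, against 77.8, 78.1, 77.0, 79.0 and 74.4 CPM with DMSO. All enzalutamide libraries were below all DMSO libraries (-0.17, SE 0.0371, edgeR adjusted p = 0.00182). Fads3, whose substrate range is less settled, was near 1 CPM in both groups (1.22 ± 0.204 with enzalutamide and 1.18 ± 0.218 with DMSO) and did not pass. The ratio of Fads1 to Fads2 was 3.67 ± 0.208 with enzalutamide and 2.80 ± 0.0657 with DMSO, without overlap. The log2 difference was 0.39 (exact p = 0.00794, adjusted p = 0.0159).

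Summed over the 5 desaturases, the level was 739 ± 13 CPM with enzalutamide and 790.4 ± 12.1 CPM with DMSO, and the libraries did not overlap. Scd2 and Fads1 make up most of this sum, which is given as a description without a test.

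**Figure D3:**
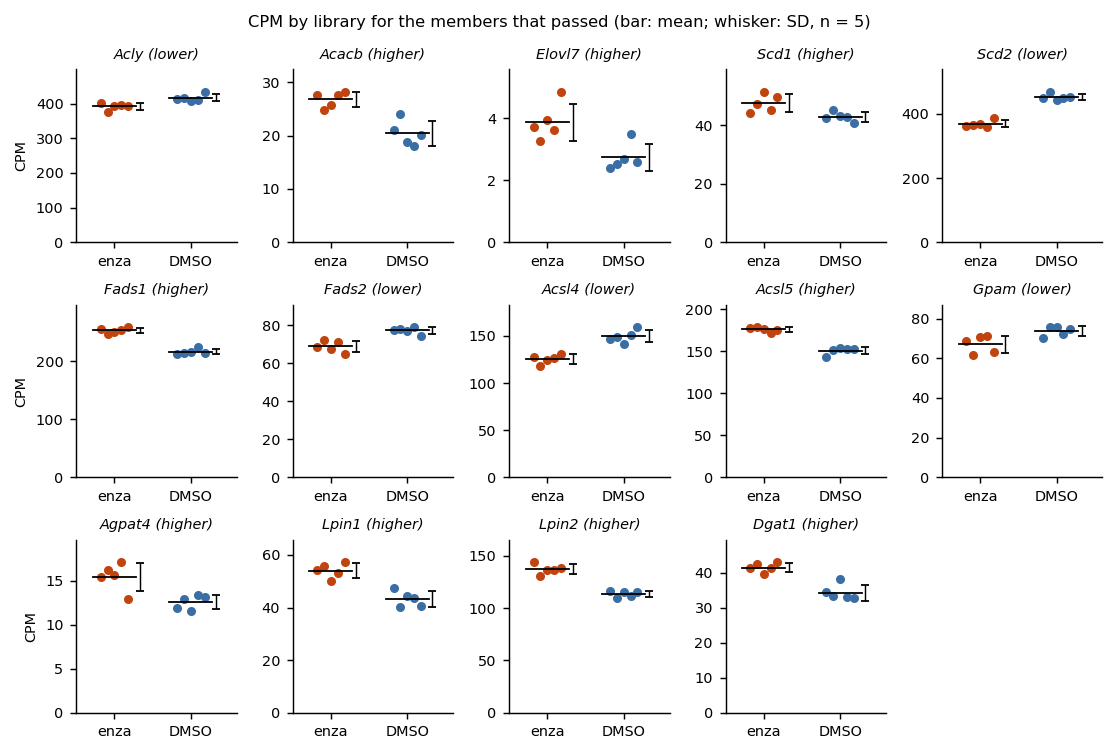
CPM of the 14 members that passed the test, in each of the 5 enzalutamide libraries and the 5 DMSO libraries, with the mean and SD beside the points. The groups do not overlap for 10 of them, while for Elovl7, Scd1, Gpam and Agpat4 at least 1 library lies within the range of the other group.

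Of the 5 long-chain acyl-CoA synthetases, Acsl5 rose, Acsl4 fell and the other 3 did not pass. Acsl4, which prefers arachidonate and is known as a determinant of ferroptosis, lies on chromosome X (142317993 to 142390535, minus strand). It had 128, 118, 124, 126 and 131 CPM with enzalutamide, against 147, 149, 142, 150.5 and 159 CPM with DMSO. The groups did not overlap, and the level was 16.0% lower (log2 fold change -0.25, SE 0.0370, edgeR adjusted p = 3.73e-05). Acsl5, found on mitochondria and the endoplasmic reticulum and abundant in gut and liver, lies on chromosome 19 (55251938 to 55297720, plus strand). It had 178, 179, 177, 171 and 176 CPM with enzalutamide, against 143, 152, 155, 153 and 152 CPM with DMSO. Here too the groups stood apart, with a level 16.7% higher (0.22, SE 0.0303, edgeR adjusted p = 1.67e-05). Zdhhc6, which overlaps Acsl5 on the opposite strand over 404 exon bases, gave 0.09 and did not pass (adjusted p = 0.0889).

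Acsl1, the main synthetase of fat and heart, gave -0.02 (interval -0.10 to 0.06), Acsl3, a synthetase of the endoplasmic reticulum and lipid droplets, 0.03 (interval -0.08 to 0.14) and Acsl6, the brain-rich synthetase, -0.01 (interval -0.13 to 0.11). The 5 synthetases together summed to 402 ± 4.99 CPM with enzalutamide and 401 ± 9.05 CPM with DMSO, so the sum differed by less than the spread between libraries while its makeup shifted. The ratio of Acsl3 to Acsl4 was 0.217 ± 0.0166 with enzalutamide and 0.179 ± 0.0107 with DMSO, a log2 difference of 0.28 (exact two-sided permutation test, p = 0.00794, adjusted p = 0.0159). Utp14b, which shares 3.59% of the 50-base stretches of Acsl3 on the same strand, was lower with enzalutamide (-0.32).

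The 250 bases before the RefSeq start (GRCm38.p6) of the synthetase that fell and of the one that rose are shown 5′ to 3′ on the gene's strand. The Acsl4 window adjoins the start of its GENCODE gene, whereas the Acsl5 window lies inside the GENCODE span of Acsl5, which begins further upstream, so the windows are not equivalent in position. Capitals mark matches on either strand to CCAAT, to CACGTG (the E-box that SREBP and Mondo factors can bind), to TCACNCCAC (a sterol regulatory element) or to TGATGNAA (an amino acid response element). The window of Acsl4, chrX:142390536-142390785 on the minus strand, had no match and a GC content of 70.8%, whereas that of Acsl5, chr19:55253119-55253368 on the plus strand, had 1 CCAAT that begins 117 bases before the start and a GC content of 52.8%.
Acsl4: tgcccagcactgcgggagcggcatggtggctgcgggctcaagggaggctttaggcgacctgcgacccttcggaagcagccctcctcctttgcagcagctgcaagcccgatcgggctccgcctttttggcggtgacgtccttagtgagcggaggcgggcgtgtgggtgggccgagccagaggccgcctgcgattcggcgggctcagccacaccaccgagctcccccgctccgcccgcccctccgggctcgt
Acsl5: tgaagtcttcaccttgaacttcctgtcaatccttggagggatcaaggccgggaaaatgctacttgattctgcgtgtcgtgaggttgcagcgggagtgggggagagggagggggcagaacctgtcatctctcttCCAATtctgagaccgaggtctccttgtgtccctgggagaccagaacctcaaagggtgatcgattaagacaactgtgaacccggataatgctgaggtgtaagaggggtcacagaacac

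Glycerolipid assembly, the step with the most tested genes, also had the most genes higher in enzalutamide: of 9 tested, 4 rose, 1 fell and 4 did not pass. Among all genes tested, 19.0% were higher and 18.8% lower. The 4 members of this step that rose act after the entry acylation. Lpin1 and Lpin2 are lipins, phosphatidate phosphatases that make diacylglycerol and also act in the nucleus as transcriptional coregulators. Lpin1 lies on chromosome 12 (16535669 to 16610966, minus strand). It had 54.4, 55.6, 50.1, 53.1 and 57.1 CPM with enzalutamide, against 47.5, 40.3, 44.4, 43.7 and 40.5 CPM with DMSO. The groups did not overlap, and the level was 24.9% higher (log2 fold change 0.32, SE 0.0517, edgeR adjusted p = 9.57e-05). Lpin2, on chromosome 17 (71182560 to 71249817, plus strand), had 144, 130.3, 136, 136 and 139 CPM with enzalutamide, against 116, 109, 115, 111 and 116 CPM with DMSO. Again no library overlapped, and the level was 20.6% higher (0.27, SE 0.0336, edgeR adjusted p = 6.67e-06). The ratio of Lpin1 to Lpin2 was 0.395 ± 0.0242 with enzalutamide and 0.381 ± 0.0224 with DMSO, a log2 difference of 0.05 that did not pass (exact two-sided permutation test, p = 0.365, adjusted p = 0.417).

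Dgat1, an acyltransferase that completes triacylglycerol, had 41.4, 42.5, 39.6, 41.3 and 43.0 CPM with enzalutamide, against 34.4, 33.3, 38.4, 33.2 and 32.8 CPM with DMSO. DMSO library 3 came closest to the enzalutamide libraries but stayed below all of them (log2 fold change 0.27, SE 0.0494, edgeR adjusted p = 0.000299). Dgat2, the unrelated enzyme of the same reaction, had 7.001, 7.28, 6.90, 7.95 and 9.27 CPM with enzalutamide, against 7.46, 8.14, 8.19, 8.03 and 6.12 CPM with DMSO. Its libraries were intermixed, with a log2 fold change of 0.02 and a 95% interval from -0.19 to 0.22. The ratio of Dgat1 to Dgat2 was 5.46 ± 0.541 with enzalutamide and 4.57 ± 0.512 with DMSO, and the log2 difference of 0.26 did not pass over the 8 pairs (exact p = 0.0476, adjusted p = 0.0762). The larger change of Dgat1 was therefore not shown to differ from that of Dgat2.

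Agpat4, a lysophosphatidate acyltransferase, had 15.4, 16.2, 15.7, 17.1 and 12.9 CPM with enzalutamide, against 11.9, 13.0, 11.6, 13.4 and 13.2 CPM with DMSO. Enzalutamide library 5 lay within the DMSO range and the others above it (log2 fold change 0.30, SE 0.0768, edgeR adjusted p = 0.00523). Gpam, the mitochondrial acyltransferase that starts the pathway by acylating glycerol phosphate, was the 1 member of this step that fell. It had 68.7, 61.7, 70.6, 71.3 and 63.0 CPM with enzalutamide, against 70.4, 75.6, 75.6, 72.1 and 74.7 CPM with DMSO. Enzalutamide libraries 3 and 4 lay within the DMSO range (-0.14, SE 0.0449, edgeR adjusted p = 0.0236). The call of Gpam was lost with library totals alone as the scale (adjusted p = 0.0939) and without any of DMSO libraries 2, 3 and 5 or enzalutamide libraries 2 and 5, with adjusted p up to 0.0595. Agpat1 and Agpat3, the most abundant acyltransferases of the list, gave 0.05 each, and Agpat5 gave -0.08, all without passing.

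The 11 genes of this step summed to 713, 723, 694, 694 and 689 CPM with enzalutamide, against 657, 659.8, 664, 650.1 and 663 CPM with DMSO. Every enzalutamide sum was above every DMSO sum, while the 6 genes of synthesis summed to 1090.1 ± 29.5 CPM with enzalutamide and 1118 ± 34.4 CPM with DMSO, with overlapping libraries. These sums are descriptions without a test.

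**Figure D4:**
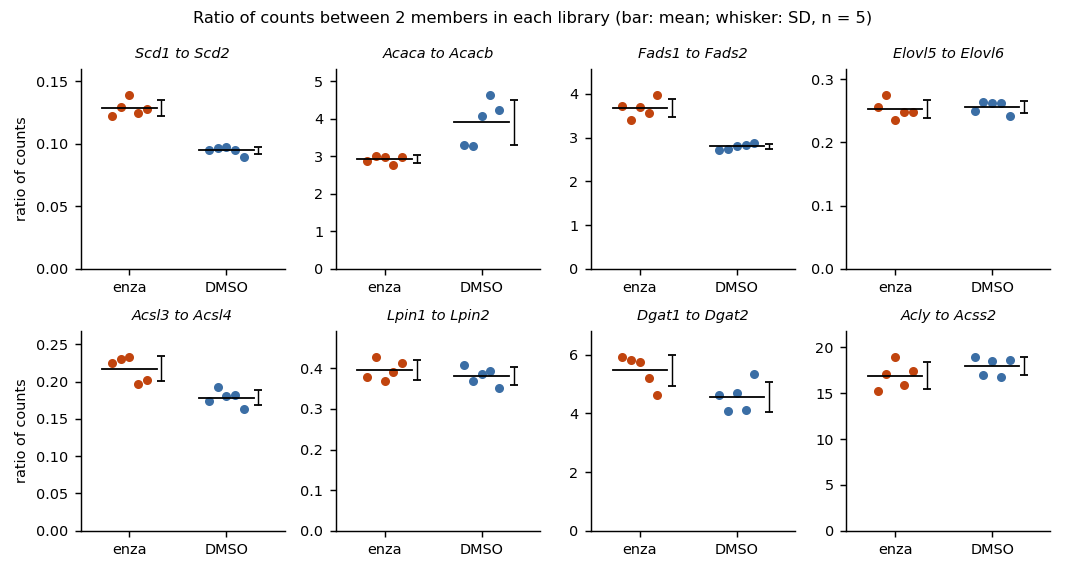
Ratio of the counts of related members in each library, for enzalutamide (left) and DMSO (right), with the mean (bar) and SD (whisker, n = 5). Scd1 to Scd2, Acaca to Acacb, Fads1 to Fads2 and Acsl3 to Acsl4 show no overlap between the groups, and the other 4 pairs do.

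The lipin windows before the RefSeq starts are shown because both genes rose together. That of Lpin1, chr12:16610967-16611216 on the minus strand, held none of the 4 motifs. Lpin2 has 3 such windows in RefSeq, and the one printed, chr17:71183282-71183531 on the plus strand, is the furthest upstream of them, although it too lies inside the GENCODE span of the gene. It held 1 CACGTG that begins 9 bases before the start. Of the other Lpin2 windows, 1 held 3 CCAAT and 1 TGATGNAA match and the other held none. The window of Fasn, chr11:120824548-120824797 on the minus strand, is added as that of an abundant member which did not pass. It held 3 CCAAT matches, of which a pair on opposite strands overlap each other.
Lpin1: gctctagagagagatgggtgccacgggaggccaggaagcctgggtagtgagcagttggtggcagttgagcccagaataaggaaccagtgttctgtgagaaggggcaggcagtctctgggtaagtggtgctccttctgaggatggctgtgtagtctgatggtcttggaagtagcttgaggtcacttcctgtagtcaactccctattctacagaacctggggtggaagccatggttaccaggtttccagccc
Lpin2: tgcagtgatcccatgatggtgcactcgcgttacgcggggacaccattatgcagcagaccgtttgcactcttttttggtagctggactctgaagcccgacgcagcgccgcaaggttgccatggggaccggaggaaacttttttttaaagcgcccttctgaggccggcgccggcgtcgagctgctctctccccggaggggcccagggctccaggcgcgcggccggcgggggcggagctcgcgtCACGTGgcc
Fasn: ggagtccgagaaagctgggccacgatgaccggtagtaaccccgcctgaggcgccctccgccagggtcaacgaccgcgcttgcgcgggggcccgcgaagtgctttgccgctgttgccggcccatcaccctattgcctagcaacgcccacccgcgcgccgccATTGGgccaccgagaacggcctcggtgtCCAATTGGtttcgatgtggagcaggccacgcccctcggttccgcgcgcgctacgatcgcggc

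Promoter entries were matched for 29 of the 35 members, with 42 windows in all. Those not matched were Agpat5, Dgat1, Dgat2, Fads1, Scd1 and Scd2. CCAAT occurred in at least 1 window of 17 of the 29 members, and in 37.5% of 27025 genes of the table with windows of the same length. All genes together had 32851 windows, so members had more windows per gene and the shares are not like for like. Among members it was found in 4 of 6 that rose, 1 of 4 that fell and 12 of 16 that did not pass. The sterol regulatory element letters were found in 1 member, Acsl1, and in 1.22% of all genes. CACGTG was found in Elovl5 and Lpin2, and in 6.86% of all genes. TGATGNAA was found in Gpam and Lpin2, and in 3.91% of all genes. A match is a description of these letters only and was not tested as a site.

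Neither regulator among the members passed the test, and both estimates were below 0. Srebf1 had 32.7, 31.8, 29.6, 29.6 and 33.7 CPM with enzalutamide, against 36.1, 33.3, 35.3, 31.5 and 33.7 CPM with DMSO. The groups overlapped, and the log2 fold change was -0.11 (SE 0.0525, edgeR adjusted p = 0.112). Without the trends of GC content and length it was -0.20 and passed (adjusted p = 0.00281). Rai1, which overlaps Srebf1 on the opposite strand over 109 exon bases, was higher with enzalutamide (0.13, adjusted p = 0.0212). Thrsp, a lipogenic cofactor also called Spot 14, was close to the detection limit, with 0.0497, 0.0595, 0, 0.195 and 0.154 CPM with enzalutamide and 0.219, 0.123, 0.818, 0.118 and 0.334 CPM with DMSO. These values rest on 0 to 13 counts per enzalutamide library and 8 to 55 per DMSO library. Its log2 fold change of -1.80 (SE 0.704) was the largest in size of all members and did not pass (edgeR adjusted p = 0.0541), although it did without DMSO library 2 or 4 or enzalutamide library 4 (adjusted p between 0.0375 and 0.044).

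Genes around the pathway, in 5 further lists of 109 symbols, showed the same mixture. Of these symbols 108 were found and 86 tested, and 20 were higher and 14 lower with enzalutamide, with a median log2 fold change of 0.03 against 0.01 for all genes. The share that passed, 39.5%, was near the 37.8% of all genes. By list it ran from 27.8% of 36 genes of glycerolipid and phospholipid assembly to 70% of 10 genes of SREBP control. Among 10 genes that control SREBP and related lipogenic factors, 4 rose and 3 fell (median 0.08). Of 18 other genes of fatty acid synthesis and elongation, 3 rose and 4 fell (median 0.02). In the list of other activating enzymes, which also holds fatty acid carriers and thioesterases, 2 of 9 rose and 3 fell (median -0.10). Of 36 other genes of glycerolipid and phospholipid assembly, 7 rose and 3 fell (median 0.03), and of 13 genes of lipid droplets and lipolysis 4 rose and 1 fell (median 0.01).

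The proteases that release SREBP from the membrane moved apart. Mbtps2, the site-2 protease, averaged 48.2 ± 2.81 CPM with enzalutamide and 36.2 ± 2.75 CPM with DMSO (log2 fold change 0.41, SE 0.0558, edgeR adjusted p = 1.66e-05). Mbtps1, the site-1 protease, averaged 226 ± 3.41 CPM with enzalutamide and 242 ± 4.58 CPM with DMSO (-0.10, adjusted p = 0.00823), a call lost with library totals alone as the scale (adjusted p = 0.0802). Srebf2, the SREBP of cholesterol synthesis, averaged 258 ± 12.3 CPM with enzalutamide and 290.0 ± 7.74 CPM with DMSO (-0.17, edgeR adjusted p = 0.000886). Nr1h2, the liver X receptor beta that can induce Srebf1, rose by 0.30 (adjusted p = 3.3e-05), and Mlx, the partner of the glucose-responsive Mondo factors, gave -0.16 (adjusted p = 0.00286).

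In the other synthesis genes, Idh1, a cytosolic source of NADPH, rose by 0.24 and Mlycd, which degrades malonyl-CoA, by 0.21. Me2, a mitochondrial malic enzyme, and Hsd17b12, the ketoreductase of the elongation cycle, gave -0.30 each, and Mecr, the enoyl reductase of mitochondrial fatty acid synthesis, gave -0.16. In phospholipid assembly, Etnk1, an ethanolamine kinase, averaged 471 ± 20.3 CPM with enzalutamide and 411 ± 11.8 CPM with DMSO (0.19, edgeR adjusted p = 0.000148), and Cds2, a CDP-diacylglycerol synthase, rose by 0.18. Pcyt1a, the rate-limiting enzyme of phosphatidylcholine synthesis, averaged 75.7 ± 4.83 CPM with enzalutamide and 90.4 ± 3.19 CPM with DMSO (-0.26, edgeR adjusted p = 0.000179). Gk, the glycerol kinase, gave -0.21 and Gpat4, an acyltransferase of the endoplasmic reticulum for the same reaction as Gpam, gave -0.13. All of these passed edgeR's test, the highest adjusted p being that of Mlycd (0.00849), which did not pass once trends of GC content and length were removed (0.0658).

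**Figure D5:**
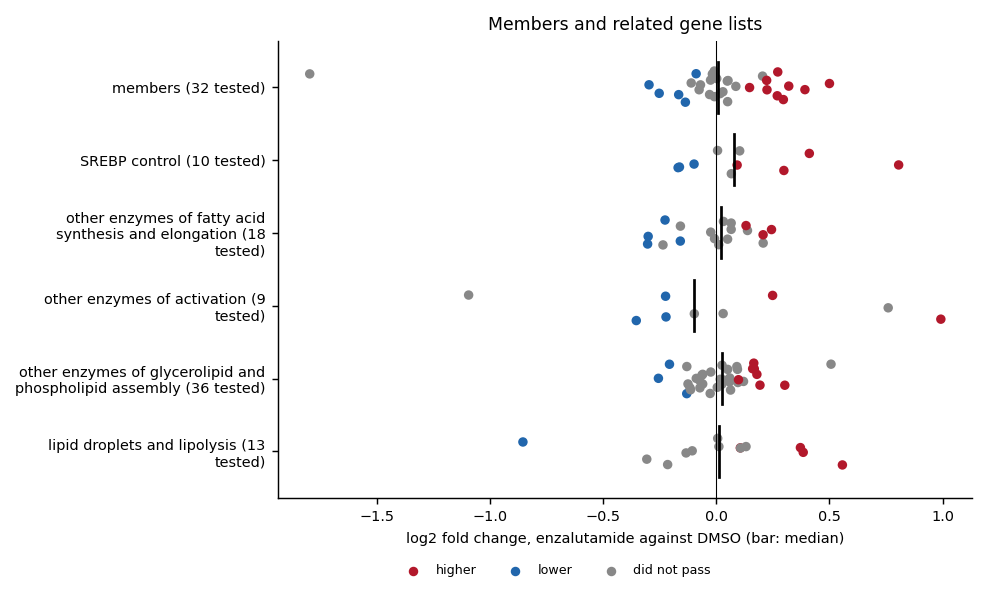
Log2 fold change, enzalutamide against DMSO, of each tested gene of the members and of 5 related lists, with the median of each as a bar. Red points passed as higher and blue points as lower at an adjusted p under 0.05, and grey points did not pass. Every median lies between -0.10 and 0.08, and all lists hold genes on both sides of 0.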

How the data were processed

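The deposited table held whole-number counts per Ensembl gene, 1 column per library, and mm10, HISAT2, StringTie and DESeq2 appear, per the submitters' processing notes, without a version or a role. How reads were counted, with which strand setting, and how reads matching several places were treated is not given in the sources used here. The authors also deposited a scaled signal, in which each of the 20039 genes matched by a symbol of its own gave the count within 0.01 when multiplied by DESeq2's size factor. There were 0 unused columns.

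Counts were tested in R 4.3.3 with edgeR 4.0.16 (filterByExpr with a minimum count of 10, trimmed mean of M values, quasi-likelihood test, Benjamini-Hochberg adjustment over 14156 genes, threshold 0.05). SEs are the log2 fold change over the square root of F, and 95% intervals use the normal quantile. These intervals are somewhat too short for 5 libraries per group. Those of Srebf1 (-0.213 to -0.00744) and Elovl1 (0.00504 to 0.169) leave out 0, although edgeR's unadjusted p was 0.0509 and 0.0530. The biological coefficient of variation was 8.39%. Libraries of a group differed by more than counting noise (chi-square over its degrees of freedom of 9.23 to 37.3), so each counted as 1 sample, and a p-value reflects only how much these libraries vary, which may be technical. The test was checked on simulated data with known changes and a common dispersion for all genes. It recovered 28% of changes of 1.2-fold and 78% of changes of 1.5-fold, with 6 false calls among 155. Changed genes were few there (50 per size of change, 13974 genes tested), while 37.8% of genes passed in the data. Members at 20 CPM or more also varied less than 8.39%, with median coefficients of variation of 3.92% with enzalutamide and 3.89% with DMSO. The recovered shares therefore do not measure the power for these members. A gene that did not pass may still have changed by a small amount.

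The members, the related lists and the marker lists were chosen with earlier results of these data known, and so support nothing by their choice. Text names every member and up to 5 passing genes with the lowest adjusted p from each related list. It also names markers at 1 CPM or more in either group. Cdc20, Zdhhc6, Utp14b and Rai1 are named too, and their exons overlap those of members, but not every such gene is described. Ggt7 and Gss, which overlap Acss2, and Egfl8, which overlaps Agpat1, did not pass (edgeR adjusted p = 0.746, 0.585 and 0.938). Of the related symbols Hsd17b8 was not matched. Results for some α cell markers are not reported here, and the sums leave them out. Ratios of counts between related members were compared by exact permutation of libraries. They use the same counts as the tests of single members, so they are not separate evidence. A ratio can differ because only 1 of its genes changed. Positions and shared 50-base stretches came from GENCODE M21, where 96.5% of the identifiers were found, and promoter windows from RefSeq. Alternatives were other scalings, filters, tools (DESeq2 1.42.0, limma 3.58.1 on counts and on log2 of the scaled signal plus 1 or 8), a replicate block, a minimum change, summed duplicate symbols and each library left out; removal of GC and length trends was added after the data were seen.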

Additional observations from a re-analysis of the deposited data

Results flagged for a closer look

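Of 64 sets of 5 libraries checked (32 members in each group), 2 held a library apart from the other 4 by more than 0.71 of the whole range, where chance gives about 1 in 20. Acsl5 had 143 CPM in DMSO library 1, against 152 to 155 CPM in the other DMSO libraries. Without that library its log2 fold change was 0.20 and still passed (edgeR adjusted p = 7.2e-05). Elovl7 had 3.51 CPM in DMSO library 4, against 2.41 to 2.68 CPM in the others. Without that library its log2 fold change was 0.61 (edgeR adjusted p = 0.00398).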

How the results depend on the processing

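The calls of Acacb, Elovl7, Scd2, Fads1, Fads2, Acsl4, Acsl5, Agpat4, Lpin1, Lpin2 and Dgat1 held under every alternative run except the minimum change of 1.2-fold. That minimum left 0 members higher and 0 lower, 524 genes higher and 402 lower over the transcriptome, and 3 higher and 0 lower in the related lists (glmTreat in edgeR; 5 members had an unadjusted p under 0.05, and DESeq2 and limma, run without a minimum, called 14 members each). Members lower numbered 3 with library totals as the scale, 8 with GC and length trends removed, and 3 to 6 with a library left out (3 without DMSO library 5); members higher then numbered 8 to 10. Library totals shifted the median of all genes by 0.0345 (log2). On that scale Acaca (0.0272), Fasn (0.0179), Elovl5 (0.00544), Elovl6 (0.0272), Acsl1 (0.0096) and Acsl6 (0.0266) lay above 0 without passing. With GC and length trends removed Agpat1 (-0.0289), Agpat3 (-0.00586), Dgat2 (-0.0261) and Acss2 (-0.0107) lay below 0, none passing. Acss2 was also just below 0 with DESeq2's size factors (-0.000385), the replicate block (-0.000766), DESeq2 (-0.000429), limma-voom (-0.00459) and limma-trend with 1 (-0.00358) or 8 (-0.00354) added. With a library left out, members that never passed crossed 0: Acss2 -0.0447 to 0.0418, Acaca -0.0528 to 0.021, Elovl6 -0.0275 to 0.0143, Fads3 -0.0236 to 0.142, Acsl6 -0.0559 to 0.0197 and Dgat2 -0.0592 to 0.0539, as did the log2 ratio of Elovl5 to Elovl6 (-0.0507 to 0.00400). The log2 ratio of Dgat1 to Dgat2 was 0.219 to 0.316, and passed without enzalutamide library 5 or DMSO library 5 (adjusted p = 0.0381). Thrsp passed without DMSO library 2 or 4 or enzalutamide library 4, as well as after removal of GC and length trends (-1.77, adjusted p = 0.0497). Elovl1 (adjusted p = 0.0282) and Agpat3 (0.0488) passed as higher with library totals, and Agpat5 as lower without enzalutamide library 2 (0.0256). Elovl4 passed with the block (adjusted p = 0.0274), with library totals, without DMSO library 5 or enzalutamide library 4, as well as after removal of those trends (0.23). The cause of these changes was not tested. The labels do not say whether a replicate number is shared between the groups. Same-numbered deviations correlated between -0.0085 and 0.0451, and 5 of 10 libraries correlated best with their own number. These values do not settle whether the libraries were paired. With the replicate block 10 members were higher and 5 lower. Sign flips of same-numbered differences left the log2 ratios of Scd1 to Scd2 (0.44), Acaca to Acacb (-0.40), Fads1 to Fads2 (0.39) and Acsl3 to Acsl4 (0.28) at an exact p of 0.0625, the smallest that 5 pairs allow (adjusted p = 0.125). Depth limits Thrsp, Elovl2, Agpat2 and Lpin3.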

Other observations

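Of 13 genes of lipid droplets and lipolysis tested beside the pathway, 4 rose with enzalutamide, 1 fell and 8 did not pass. The share that passed, 38.5%, was near the 37.8% of all genes tested. Pnpla2, the adipose triglyceride lipase that starts lipolysis, had 44.2, 43.4, 39.7, 41.0 and 43.1 CPM in enzalutamide libraries, against 34.4, 32.9, 31.2, 33.2 and 31.7 CPM in DMSO libraries, with no overlap (log2 fold change 0.37, SE 0.0460, edgeR adjusted p = 6.08e-06). Lipa, the lysosomal acid lipase, had 11.8, 11.4, 11.3, 11.1 and 12.04 CPM with enzalutamide, against 7.95, 7.35, 8.67, 7.87 and 7.25 CPM with DMSO, again without overlap (0.56, edgeR adjusted p = 1.07e-05). Plin2, the perilipin that coats droplets in most cells, had 29.0, 28.4, 25.8, 26.4 and 23.0 CPM with enzalutamide, against 23.3, 18.4, 19.98, 21.9 and 17.98 CPM with DMSO, where enzalutamide library 5 fell within the DMSO range (0.38, edgeR adjusted p = 0.000738). Fitm2, which helps droplets form, gave 0.11 (adjusted p = 0.0348), a call lost when any library other than DMSO library 3 or enzalutamide library 2 was left out (adjusted p up to 0.0967). Plin4, at 0.771 ± 0.263 CPM with enzalutamide and 1.39 ± 0.236 CPM with DMSO, was the 1 gene of this list that fell (-0.85, edgeR adjusted p = 0.0169).

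Among the related genes that passed, the largest change in size was that of Acot2, a mitochondrial acyl-CoA thioesterase, which had 11.9, 11.2, 12.8, 10.7 and 11.5 CPM with enzalutamide, against 5.79, 4.44, 6.42, 6.01 and 6.46 CPM with DMSO (log2 fold change 0.99, SE 0.0988, edgeR adjusted p = 5.04e-07). Slc27a1, a fatty acid transporter with acyl-CoA synthetase activity, gave 0.25 (adjusted p = 0.0214), a call lost without DMSO library 5 or enzalutamide library 5 and after removal of GC and length trends (adjusted p up to 0.0832). Fabp5, a fatty acid binding protein, averaged 43.3 ± 4.93 CPM with enzalutamide and 55.3 ± 3.23 CPM with DMSO (-0.35, edgeR adjusted p = 0.000448), while Dbi, the acyl-CoA binding protein, and Acbd3, a Golgi protein with an acyl-CoA binding domain, gave -0.22 each, and both passed as lower. Fabp3, another fatty acid binding protein with at most 15 counts in an enzalutamide library and 30 in a DMSO library, had the largest estimate of the list in size (-1.09) and did not pass (adjusted p = 0.143), and Slc27a4, a further transporter, gave -0.10 (adjusted p = 0.108). Fabp3 and Slc27a4 were chosen after their values were seen.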
